A study of Mus musculus with 2 samples.

Results

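The transcription factors Gata3, Tfcp2l1, Grhl2, Elf3, Elf5, Emx1 and Emx2 were chosen as regulators known from collecting system epithelium, and all 7 were found by symbol among the 32285 genes counted in single-nucleus RNA sequencing (snRNA-seq) of mouse kidney. The data are 1 library at E18.5, from mice that carry floxed Myc and Mycn alleles (Mycf/f;Mycnf/f) without Cre on a mixed background, and 1 library at P3, labelled as wild type on C57BL/6J. The methods of the study give a mixed background for both ages, so whether the libraries differ in background is unclear. In each library, whole kidneys of several male and female mice were pooled before nuclei were isolated, so no library has a replicate. In any comparison between the libraries, age therefore cannot be told apart from genotype, sequencing library or a difference in background. The matrix headers also name different releases of the counting software Cell Ranger, which cannot be told apart from age either. No test between conditions was possible.

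The collecting system grows from the ureteric bud, a branching epithelial tube. Its tips hold proliferating progenitors that drive branching, and the cells they leave behind form the collecting ducts, with principal cells that take up water and sodium and intercalated cells that handle acid and base. Towards the ureter the tube is lined by urothelium, a stretchable barrier coated with uroplakins. GATA3 is a zinc finger factor required for the nephric duct and the ureteric bud. TFCP2L1 and GRHL2 belong to related families of DNA-binding proteins (CP2 and grainyhead), and are known for patterning of collecting duct cells and for epithelial adhesion and barrier genes, respectively. ELF3 and ELF5 are ETS factors of epithelia. EMX1 and EMX2 are homeobox paralogs best known from the forebrain, and EMX2 is also required for the ureteric bud.

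After quality limits, 21270 nuclei with a median of 3132 unique molecular identifiers (UMIs, here the number of distinct RNA molecules counted) remained at E18.5 and 11765 nuclei with a median of 4534 UMIs at P3, with totals of 77321253 and 70055219 UMIs. The libraries had 69 barcodes in common. Each library was clustered on its own without the 7 factors and their relatives, and clusters were named only from markers outside that set. Ureteric epithelium-like nuclei were 1150 at E18.5 (5.41% of nuclei) and 429 at P3 (3.65%), and clustering them again gave ureteric tip-like nuclei (347 and 208) and collecting duct-like nuclei (455 and 71). Intercalated cell-like nuclei (78 and 71) and urothelium-like nuclei (89 and 71) formed clusters of their own. The naming rules left 46.3% of nuclei at E18.5 and 35.6% at P3 without a class. A level is given below as UMIs of the gene per 1000000 UMIs of the class (CPM), with the exact 95% Poisson interval, and a ratio of levels with its exact 95% binomial interval. These intervals cover counting error only, and levels are compared between groups of nuclei but not between genes.

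The positions of the genes were read from the GRCm38 annotation. Gata3 (ENSMUSG00000015619) is at chr2:9857078-9890034 on the minus strand, Tfcp2l1 (ENSMUSG00000026380) at chr1:118627945-118685168 on the plus strand and Grhl2 (ENSMUSG00000022286) at chr15:37233036-37363569 on the plus strand. Elf3 (ENSMUSG00000003051) is at chr1:135253575-135258568 on the minus strand and Elf5 (ENSMUSG00000027186) at chr2:103411688-103450989 on the plus strand. Emx1 (ENSMUSG00000033726) is at chr6:85187438-85204462 and Emx2 (ENSMUSG00000043969) at chr19:59458372-59465357, both on the plus strand. Counted genes on the opposite strand overlap Gata3, Grhl2, Elf3 and Emx2, and whether the counting used strand is not given in the sources used here. The counted gene 9230102O04Rik lies on the strand of Gata3 and shares 6500 bases with it, so that the level of Gata3 is uncertain by what the counting assigned there. Of 9230102O04Rik, ureteric epithelium-like nuclei held 21.6 CPM at E18.5 and 48.3 CPM at P3.

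Promoter windows of RefSeq (GRCm38.p6, 250 bases before to 50 bases after a start, written on the gene's strand) were found for 6 of the 7 genes, with 2 windows for Elf5 and none for Grhl2. The windows of Gata3, Elf5, Emx1 and Emx2 lie wholly inside the gene positions given above. The starts used for these windows thus differ from the outer ends of the annotated genes. The windows of the genes with the sharpest differences between classes, Tfcp2l1, Elf5 and Emx1, are shown with that of Emx2, the paralog of Emx1. Capitals mark the only motif match in them.
Tfcp2l1, chr1:118627695-118627994, plus strand: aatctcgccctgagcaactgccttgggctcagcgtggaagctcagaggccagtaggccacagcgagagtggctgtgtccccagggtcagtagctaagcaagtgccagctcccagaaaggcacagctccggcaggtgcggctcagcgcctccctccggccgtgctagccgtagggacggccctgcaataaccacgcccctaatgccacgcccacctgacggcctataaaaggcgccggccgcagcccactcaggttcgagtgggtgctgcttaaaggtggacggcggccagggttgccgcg
Elf5, chr2:103411848-103412147, plus strand: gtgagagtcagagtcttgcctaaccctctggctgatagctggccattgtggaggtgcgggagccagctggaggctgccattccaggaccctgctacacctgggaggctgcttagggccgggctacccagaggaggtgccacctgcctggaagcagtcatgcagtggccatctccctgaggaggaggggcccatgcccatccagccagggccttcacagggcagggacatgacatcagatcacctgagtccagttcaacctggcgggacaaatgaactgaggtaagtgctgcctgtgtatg
Elf5, chr2:103423818-103424117, plus strand: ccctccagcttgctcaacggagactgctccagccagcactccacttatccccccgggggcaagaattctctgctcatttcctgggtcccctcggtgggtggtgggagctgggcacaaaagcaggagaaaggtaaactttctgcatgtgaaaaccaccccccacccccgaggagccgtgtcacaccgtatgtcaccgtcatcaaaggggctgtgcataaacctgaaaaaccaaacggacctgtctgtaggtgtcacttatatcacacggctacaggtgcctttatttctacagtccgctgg
Emx1, chr6:85187681-85187980, plus strand: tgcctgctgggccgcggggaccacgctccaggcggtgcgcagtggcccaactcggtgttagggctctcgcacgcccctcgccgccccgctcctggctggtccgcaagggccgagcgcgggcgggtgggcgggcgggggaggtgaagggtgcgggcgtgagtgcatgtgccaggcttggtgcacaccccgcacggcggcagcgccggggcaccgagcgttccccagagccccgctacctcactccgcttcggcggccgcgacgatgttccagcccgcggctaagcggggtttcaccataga
Emx2, chr19:59458440-59458739, plus strand: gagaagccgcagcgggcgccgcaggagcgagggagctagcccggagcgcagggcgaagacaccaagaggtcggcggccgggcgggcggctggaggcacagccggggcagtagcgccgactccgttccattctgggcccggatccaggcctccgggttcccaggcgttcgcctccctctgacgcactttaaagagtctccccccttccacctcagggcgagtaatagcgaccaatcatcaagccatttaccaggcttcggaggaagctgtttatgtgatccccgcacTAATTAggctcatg
Both strands of all 7 windows were searched for letters that the factor families bind, namely AGATAA for GATA factors, AACCNGTT for grainyhead factors, CCGGAAG for ETS factors, TAATTA for homeobox factors and a pair of CCAG with 6 bases between them for TFCP2L1. The single match was TAATTA in the window of Emx2, at base 287 of the window and so after the start that RefSeq gives. Among 32851 windows of all genes, 5.29% held TAATTA, 11.2% AGATAA, 2.09% AACCNGTT, 8.86% CCGGAAG and 3.44% the pair of CCAG. The GC content of the windows shown ran from 55.3% for the second window of Elf5 to 74.0% for Emx1.

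The label of collecting system factors was first set beside the classes. The genes were chosen as known regulators and with earlier results of these data known, so the counts are no independent check of it. At E18.5, 6 of the 7 genes had a level at least 2-fold higher in ureteric epithelium-like nuclei than in all other nuclei, compared with 8.07% of the 19894 genes tested. At P3 the same 6 genes did, compared with 8.98% of 19537 genes. Elf5 had the highest ratio, 10.5-fold (interval 9.12 to 12.1) at E18.5 and 12.9-fold (10.8 to 15.4) at P3 (19.9-fold at P3 without called doublets), followed by Gata3 at 8.93-fold (8.45 to 9.43) and 9.42-fold (8.74 to 10.1). Grhl2 stood at 5.21-fold and 5.63-fold, Tfcp2l1 at 4.00-fold and 2.43-fold, Emx2 at 2.83-fold and 2.34-fold, and Elf3 at 2.60-fold and 2.49-fold (1.51-fold at P3 as a mean over nuclei). Emx1 was the exception, at 1.5-fold (1.10 to 2.01) at E18.5 and 0.450-fold (0.232 to 0.791) at P3. For Emx1 the label of a collecting system factor is thus not borne out by the named classes, of which distal convoluted tubule-like nuclei held its highest level. No class was named for the connecting tubule, which joins the distal convoluted tubule to the collecting duct. Nuclei of that segment could only fall in another class or stay unnamed. After nuclei were thinned to 1000 UMIs each, 73.4% of ureteric epithelium-like nuclei at E18.5 and 71.1% at P3 held a UMI of at least 1 of the 7 genes. In endothelium-like nuclei, which should lack most of them, these shares were 9.48% and 7.79%. Distal convoluted tubule-like nuclei, which belong to the nephron, reached 70.1% and 84.5%, and loop of Henle-like nuclei 57.3% and 53.0%. A UMI of the set was thus not particular to the collecting system.

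**Figure D1:**
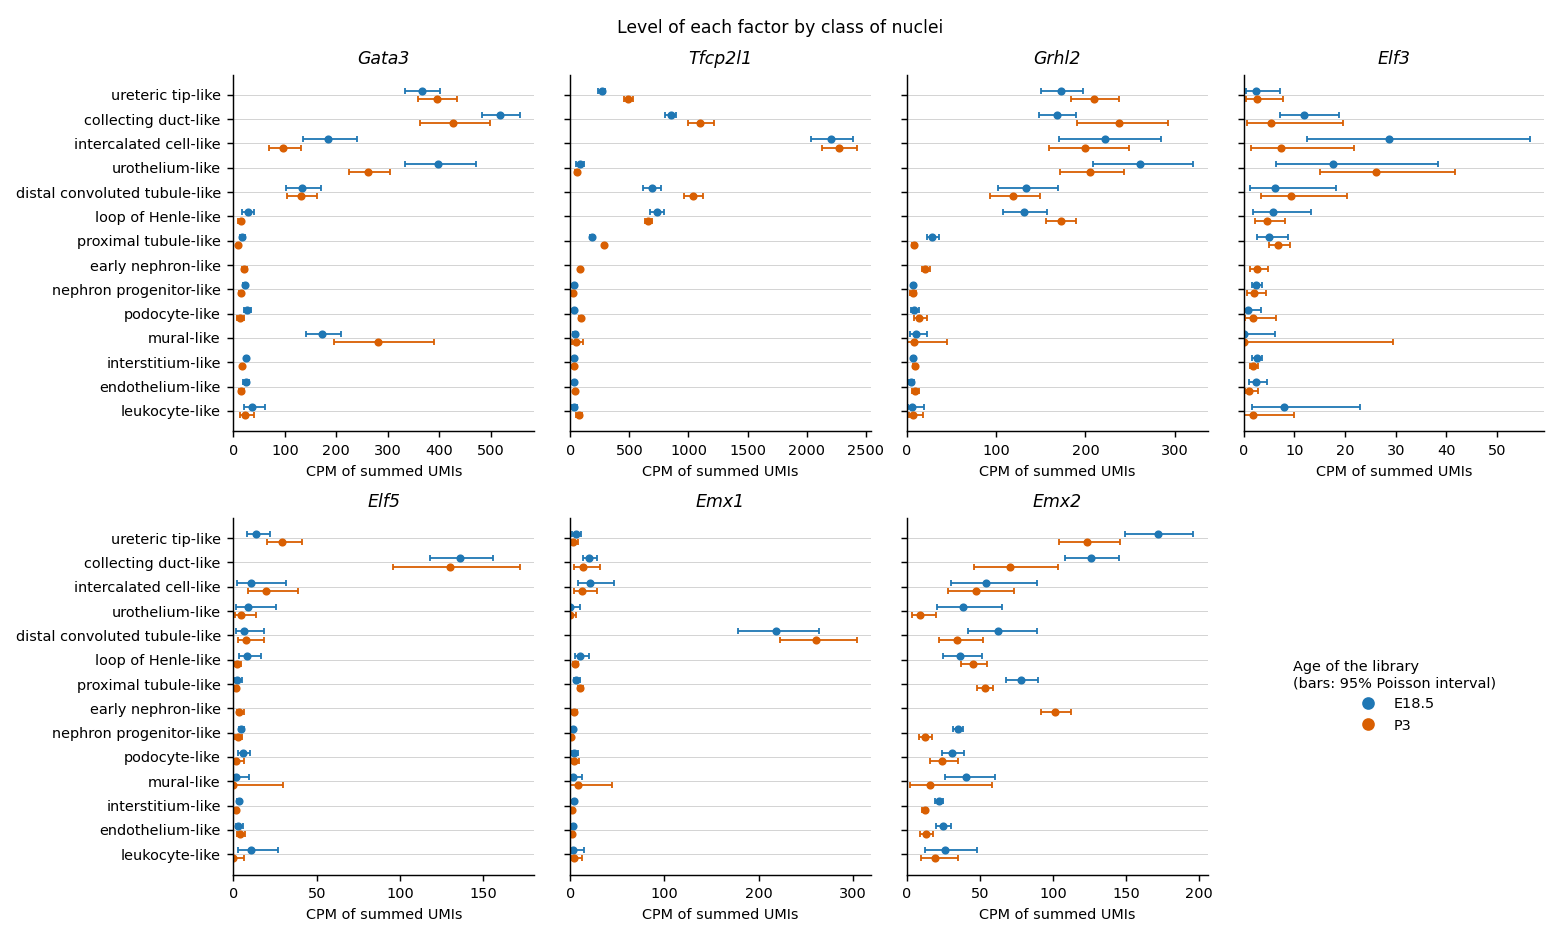
Level of each factor (horizontal axis, CPM of summed UMIs, linear and starting at 0) in each class of nuclei (vertical axis) at E18.5 (blue) and P3 (orange), where points are the levels and bars the 95% Poisson intervals. Elf5 peaks in collecting duct-like nuclei at both ages (136 and 129.8 CPM), Tfcp2l1 in intercalated cell-like nuclei (2209 and 2270.4 CPM) and Emx1 in distal convoluted tubule-like nuclei (218 and 261 CPM), whereas Grhl2 is spread over all distal and ureteric classes.

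Gata3 was high throughout the ureteric lineage. Collecting duct-like nuclei held 519 CPM (484 to 557) at E18.5 and 427 CPM (363 to 499) at P3, and ureteric tip-like nuclei 367 CPM (334 to 402) and 395 CPM (359 to 434). At E18.5 the collecting duct-like level exceeded that of urothelium-like nuclei (398 CPM) by 1.30-fold (1.09 to 1.58), whereas urothelium-like and tip-like levels did not differ beyond counting error. At P3 the 2 highest classes could not be told apart, with a ratio of 1.08 (0.896 to 1.30), and urothelium-like nuclei held 261 CPM (224 to 304). Intercalated cell-like nuclei held less, at 183 CPM and 96.4 CPM, or 0.352-fold (0.260 to 0.468) and 0.226-fold (0.155 to 0.322) the collecting duct-like level. Distal convoluted tubule-like nuclei held 133 CPM and 131 CPM. Outside epithelia, mural-like nuclei held 173 CPM at E18.5 and 280.4 CPM at P3, the latter from 35 UMIs in 32 nuclei that also carried the renin gene Ren1 at 1362 CPM. All remaining classes lay between 8.88 CPM and 36.7 CPM. Of thinned ureteric epithelium-like nuclei, 36.9% at E18.5 and 26.8% at P3 held a Gata3 UMI (71.9% and 79.3% unthinned, with medians of 3208 and 5047 UMIs), compared with 2.46% and 1.38% of endothelium-like nuclei (6.32% and 4.89% unthinned, with medians of 2815 and 3442 UMIs).

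Tfcp2l1 reached its highest level in intercalated cell-like nuclei, at 2209 CPM (2038 to 2391) at E18.5 and 2270.4 CPM (2126 to 2422) at P3. This was 2.60-fold (2.36 to 2.86) and 2.06-fold (1.83 to 2.32) the level of the next class, collecting duct-like nuclei, at 851 CPM and 1101 CPM. After thinning, 88.5% and 81.7% of intercalated cell-like nuclei held a UMI of the gene (98.7% and 95.8% unthinned, with medians of 3395 and 4976 UMIs), compared with 3.56% and 3.89% of endothelium-like nuclei (9.49% and 12.4% unthinned). The gene was not limited to the collecting system. Distal convoluted tubule-like nuclei held 688 CPM and 1037 CPM, and loop of Henle-like nuclei 731 CPM and 660.3 CPM, in each case above the level of all ureteric epithelium-like nuclei as a whole (557 CPM and 480.4 CPM). The clusters pooled as loop of Henle-like at P3 were unlike, from 364 CPM (327 to 404), below the ureteric level, to 1216 CPM (1107 to 1333). Proximal tubule-like nuclei held 184 CPM and 285 CPM. Urothelium-like nuclei, by contrast, held 79.1 CPM at E18.5 and 53.5 CPM at P3, or 0.142-fold (0.0933 to 0.207) and 0.111-fold (0.0772 to 0.156) the ureteric epithelium-like level. Nephron progenitor-like nuclei were among the lowest, at 32.5 CPM and 25.9 CPM.

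Grhl2 was the broadest of the 7 genes among distal and ureteric epithelia. At E18.5 the order was urothelium-like (261 CPM, 209 to 321), intercalated cell-like (222 CPM), tip-like (173 CPM), collecting duct-like (168 CPM), distal convoluted tubule-like (133 CPM) and loop of Henle-like (131 CPM), and no neighbours in this order differed beyond counting error. The ends of the order did differ. The urothelium-like interval lay above those of distal convoluted tubule-like (102 to 169.8) and loop of Henle-like nuclei (108 to 157). At P3 collecting duct-like (238 CPM), tip-like (209.9 CPM), urothelium-like (205 CPM), intercalated cell-like (200.1 CPM) and loop of Henle-like nuclei (173 CPM) could likewise not be separated from their neighbours, and distal convoluted tubule-like nuclei (119 CPM) were lower than the loop by 1.45-fold (1.13 to 1.88). The collecting duct-like interval (191 to 293) nevertheless lay above that of the loop (156 to 189.8). Below these classes the level dropped steeply. Proximal tubule-like nuclei held 28.5 CPM at E18.5, 4.60-fold (3.4 to 6.26) less than the loop, and 7.99 CPM at P3. Nephron progenitor-like nuclei held 7.17 CPM and 6.39 CPM, and endothelium-like nuclei 4.44 CPM and 8.91 CPM. An unnamed cluster of 995 nuclei at E18.5, led by Nrcam and Sim2, also held 179 CPM of Grhl2, with 147 CPM of Gata3 and 417 CPM of Tfcp2l1.

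Elf3 was too rare for a firm order of classes, with 287 UMIs in the whole library at E18.5 and 308 at P3. At E18.5 intercalated cell-like nuclei came first with 28.7 CPM (12.4 to 56.5, from 8 UMIs), then urothelium-like nuclei with 17.6 CPM (6.45 to 38.3, from 6 UMIs) and collecting duct-like nuclei with 11.9 CPM (7.06 to 18.8). None of these 3 classes could be told from the next. At P3 urothelium-like nuclei came first with 26.0 CPM (15.1 to 41.6, from 17 UMIs), above distal convoluted tubule-like nuclei (9.38 CPM) by 2.77-fold (1.04 to 8.58), and intercalated cell-like nuclei held 7.41 CPM (3 UMIs). Tip-like nuclei held 3 UMIs at each age, or 2.44 CPM and 2.65 CPM. Within the ureteric epithelium-like nuclei, the highest level at both ages was found in a small subcluster led by Gsdmc3 and Ptprr. It held 41.0 CPM of Elf3 (18.7 to 77.8, from 9 UMIs in 54 nuclei) at E18.5 and 40.6 CPM (20.3 to 72.6, from 11 UMIs in 35 nuclei) at P3. Of the 8 urothelium markers, 2 were raised in this subcluster at E18.5 (Upk3a and Snx31) and 1 at P3 (Snx31). No UMI of Elf3 was counted in mural-like nuclei, where the upper limit of the interval was 6.25 CPM at E18.5 and 29.5 CPM at P3.

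Elf5 was the gene most narrowly placed in the ureteric epithelium, with its highest levels outside the tips. Collecting duct-like nuclei held 136 CPM (118 to 156) at E18.5 and 129.8 CPM (95.7 to 172) at P3, or 9.85-fold (6.00 to 17.2) and 4.46-fold (2.80 to 7.17) the level of tip-like nuclei, which came next with 13.8 CPM and 29.1 CPM. Under Leiden clustering the ratio at P3 was 16.7 (5.46 to 82.9). Intercalated cell-like nuclei, the other cell type of the duct, held 10.8 CPM (3 UMIs) and 19.8 CPM (8 UMIs). All other named classes were at 10.5 CPM or below. The unnamed P3 cluster of 120 nuclei led by Plppr1 held 28.5 CPM (16.6 to 45.6, from 17 UMIs), close to the tip-like level at that age. The other ureteric subclusters also held Elf5. At E18.5 it stood at 135 CPM (87.0 to 199) in the subcluster led by the urea transporter gene Slc14a2. It stood at 105 CPM (66.4 to 157) in that led by Gsdmc3 and Ptprr, and at 44.8 CPM (31.2 to 62.3) in that led by Abca13. At P3 it stood at 126 CPM (102 to 155) in the subcluster led by Ranbp3l, with Slc14a2 among its leading genes, and at 66.4 CPM (39.4 to 105) in that led by Ptprr. After thinning, a UMI of Elf5 was found in 10.8% of collecting duct-like nuclei at E18.5 and 15.5% at P3 (33.0% and 39.4% unthinned, with medians of 3211 and 4642 UMIs), compared with 0.182% and 0.251% of endothelium-like nuclei (0.903% and 1.5% unthinned).

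Emx1 had its highest level in distal convoluted tubule-like nuclei, which belong to the nephron and not to the ureteric lineage. They held 218 CPM (178 to 264, from 105 UMIs) at E18.5 and 261 CPM (223 to 304, from 167 UMIs) at P3. This was 10.1-fold (4.50 to 28.2) and 19.3-fold (8.11 to 60.3) the next class, intercalated cell-like nuclei at E18.5 and collecting duct-like nuclei at P3, and 17.1-fold (12.1 to 24.5) and 54.5-fold (30.4 to 108) the level of ureteric epithelium-like nuclei, a ratio that was 19.1 at P3 under Leiden clustering. The class was named from its markers, among them the thiazide-sensitive transporter Slc12a3, which stood at 4962 CPM and 6487 CPM. An unnamed P3 cluster of 120 nuclei, led by Plppr1, Scnn1b and Sh3rf3, held the second highest level of Emx1 at that age, 98.9 CPM (75.3 to 128), together with 801 CPM of Slc12a3, 293 CPM of Gata3 and 761 CPM of Tfcp2l1. In the ureteric lineage Emx1 was low, with 5.70 CPM (7 UMIs) and 2.65 CPM (3 UMIs) in tip-like nuclei and 19.8 CPM (30 UMIs) and 13.5 CPM (5 UMIs) in collecting duct-like nuclei. Slc12a3 was at 28.5 CPM and 29.1 CPM in the same tip-like nuclei and at 22.5 CPM and 119 CPM in the collecting duct-like nuclei. Its order was that of Emx1 at P3 but not at E18.5, and the source of these Emx1 UMIs was not tested. Urothelium-like nuclei held no UMI of Emx1 at either age, with an upper limit of the interval of 10.8 CPM at E18.5 and 5.64 CPM at P3. Thinned to 1000 UMIs, 20.8% and 19% of distal convoluted tubule-like nuclei held a UMI of Emx1 (48.3% and 66.4% unthinned, with medians of 3158 and 4935 UMIs), and 0.182% and 0.126% of endothelium-like nuclei did (0.813% and 0.752% unthinned).

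Emx2 differed from its paralog in both its ureteric and its nephron pattern. Of the named classes, tip-like nuclei held the most at both ages, 172 CPM (149 to 196) at E18.5 and 123 CPM (104 to 146) at P3, and collecting duct-like nuclei held 126 CPM (108 to 145) and 70.3 CPM (45.9 to 103). Early nephron-like nuclei, named only at P3, held 101 CPM (91.5 to 112), and at that age neither tip-like and early nephron-like nor early nephron-like and collecting duct-like nuclei differed beyond counting error. Proximal tubule-like nuclei held 78.1 CPM and 53.1 CPM. In distal convoluted tubule-like nuclei, where Emx1 peaked, Emx2 was at 62.3 CPM and 34.4 CPM. An unnamed E18.5 cluster led by Nrcam and Sim2 held 153 CPM and another one, led by Grid1 and Stxbp5l, 134 CPM, and the unnamed P3 cluster led by Plppr1 held 183 CPM (150.0 to 220.3), more than any named class at that age. Nephron progenitor-like nuclei held 34.6 CPM and 12.1 CPM, and endothelium-like nuclei 24.6 CPM and 12.9 CPM. The antisense gene Emx2os, which starts beside Emx2 and shares 264 bases with it, held 311 CPM in ureteric epithelium-like nuclei at E18.5 and 228 CPM at P3.

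Collecting duct-like nuclei were then compared with tip-like nuclei, the progenitors at the ends of the branches. At E18.5, 4 of the 7 genes differed by more than 2-fold, all higher in collecting duct-like nuclei, compared with 16.8% of 11840 genes past 2-fold in either direction (7.42% higher and 9.42% lower). They were Elf5 (9.85-fold), Elf3 (4.88-fold, 1.42 to 25.8), Emx1 (3.48-fold, 1.5 to 9.40) and Tfcp2l1 (3.19-fold, 2.82 to 3.61), of which Elf3 and Emx1 rest on fewer than 100 UMIs. At P3, 5 of the 7 genes had the 20 UMIs required, and 2 of them, Elf5 (4.46-fold, and 16.7-fold under Leiden clustering) and Tfcp2l1 (2.24-fold, 1.97 to 2.55, and 3.53-fold), were past 2-fold, compared with 15.9% of 9448 genes (4.11% higher and 11.8% lower). Gata3 was 1.41-fold higher (1.26 to 1.59) in collecting duct-like nuclei at E18.5 and 1.08-fold (0.896 to 1.30) at P3. Grhl2 did not differ beyond counting error, with ratios of 0.974 (0.808 to 1.17) and 1.13 (0.877 to 1.45). Emx2 was lower in collecting duct-like than in tip-like nuclei at both ages, and the only one of the 7 to be so, with ratios of 0.732 (0.598 to 0.895) and 0.569 (0.359 to 0.870). The median log2 ratio was 1.67 over the 7 genes and -0.04 over all genes tested at E18.5, and 0.18 over the 5 genes and -0.14 over all genes at P3.

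The other subclusters of the ureteric epithelium-like nuclei were left unnamed and are called by their leading genes. At E18.5 the subcluster led by Abca13 and Slc12a3 (245 nuclei, in which 3 of 6 distal convoluted tubule markers were raised) held 592 CPM of Gata3, 544 CPM of Tfcp2l1 and 192 CPM of Emx2, and 16.6 CPM of Emx1. The subcluster led by Gsdmc3 and Ptprr held 291 CPM of Grhl2 (224 to 372) and 246 CPM of Tfcp2l1 (185 to 321), and so the highest Grhl2 of the subclusters with an interval that overlaps the next. Its P3 counterpart held 299 CPM of Grhl2 (237 to 371), again the highest, and with 133 CPM (93.0 to 184) the lowest Tfcp2l1. The P3 subcluster led by Ranbp3l and Abi3bp (115 nuclei) had 3 of 9 collecting duct markers raised (Aqp4, Fxyd4 and Wnt7b). Raised with them were the endothelium markers Flt1, Emcn, Egfl7 and Adgrl4 and the intercalated cell marker Slc4a9. Of its nuclei, 6.96% were called doublets. The subcluster held 279.6 CPM of Tfcp2l1, compared with 490.5 CPM in tip-like and 1101 CPM in collecting duct-like nuclei. At P3 the high level of Tfcp2l1 was thus found in the nuclei named collecting duct-like and not in this subcluster. A matching subcluster at E18.5 was not compared with it. Tip-like nuclei at P3 shared the leading genes Gm609 and Kctd16 with the Abca13-led subcluster at E18.5. Beside 5 of 6 tip markers, they had the leukocyte marker Ptprc and the early nephron markers Lhx1, Jag1 and Ccnd1 raised. Under Leiden clustering Ptprc was raised in an unnamed subcluster of 128 nuclei with 0 of 6 tip markers raised, and not in the tip-like nuclei. Leiden clustering of the P3 nuclei named 78 nuclei tip-like in place of 208, and 97 collecting duct-like in place of 71. In these groups Elf5 stood at 6.79 CPM (3 UMIs) and 113 CPM, and Tfcp2l1 at 265 CPM and 934 CPM, which gave the ratio of 16.7 for Elf5 and of 3.53 (2.89 to 4.35) for Tfcp2l1. Beside 8 of 9 collecting duct markers, the 97 nuclei had the loop of Henle markers Slc12a1, Umod, Ptger3 and Enox1 raised. The distal convoluted tubule markers Slc12a3, Wnk4 and Tmem52b were raised there too, and Slc12a3 and Wnk4 in the 71 nuclei. The part of such nuclei in the P3 collecting duct-like levels was not tested.

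**Figure D2:**
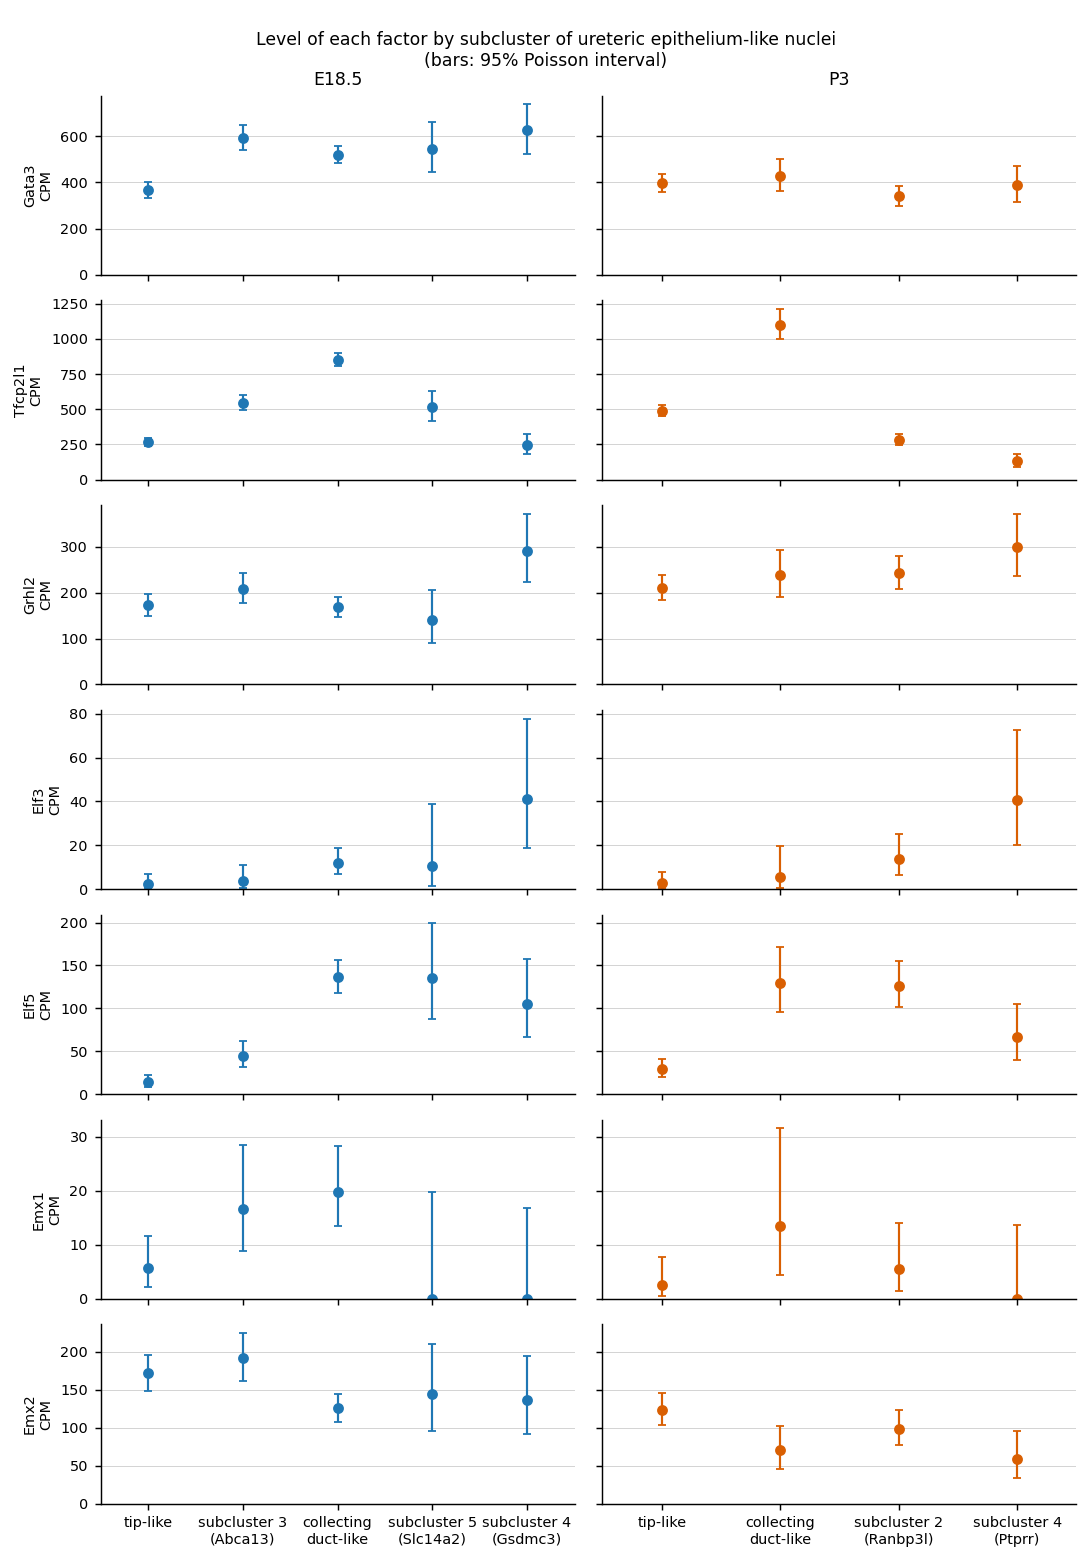
Level of each factor (vertical axis, CPM of summed UMIs, linear and starting at 0) in the subclusters of ureteric epithelium-like nuclei (horizontal axis, with a leading gene for the unnamed ones) at E18.5 (left, blue) and P3 (right, orange), where points are levels and bars the 95% Poisson intervals. Tfcp2l1 peaks in collecting duct-like nuclei (851 and 1101 CPM), Elf5 is lowest in tip-like nuclei, and the few UMIs of Elf3 are densest in the subcluster led by Gsdmc3 and Ptprr.

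Relatives of the 7 genes, counted from lists chosen with earlier results of these data known, gave the following picture. Of 13 paralogs, 12 had enough UMIs, and 2 were at least 2-fold higher in ureteric epithelium-like than in all other nuclei at each age, compared with 8.07% of all genes tested at E18.5 and 8.98% at P3. These were Gata2 (3.72-fold and 3.62-fold) and the epithelial ETS gene Ehf (9.14-fold and 9.71-fold). At each age 5 paralogs were at least 2-fold lower, compared with 17.3% of all genes tested at E18.5 and 21.9% at P3. They were Gata4, Gata5, Gata6 and Grhl1 at both ages, with Elf4 at E18.5 and Grhl3 at P3. For Gata4 and Gata5, which had at most 2 UMIs in these nuclei, the intervals reached above 1. The close relatives of Tfcp2l1, Tfcp2 and Ubp1, stayed between 0.713-fold and 1.14-fold. The other grainyhead genes were high in the urothelium, with 79.1 CPM of Grhl1 and 129 CPM of Grhl3 in urothelium-like nuclei at E18.5 and 121 CPM and 149.8 CPM at P3, compared with 5.35 CPM and 3.31 CPM in ureteric epithelium-like nuclei at E18.5 and 3.59 CPM and 0.399 CPM at P3. Grhl1 was also found in nephron progenitor-like nuclei, at 32.8 CPM and 63.5 CPM, where Grhl2 stood at 7.17 CPM and 6.39 CPM. Of 15 further transcription factors of this epithelium, 9 at E18.5 and 7 at P3 were at least 2-fold higher in ureteric epithelium-like nuclei (8.07% and 8.98% of all genes), and 1, Pparg, was at least 2-fold lower at P3 (21.9% of all genes). Of 7 known target genes of the factors, 4 at E18.5 and 6 at P3 were at least 2-fold higher, beside the same 8.07% and 8.98% of all genes, among them Cdh1, which encodes E-cadherin and is bound by GRHL2 (3.08-fold and 3.03-fold), and the vasopressin receptor gene Avpr2 (8.57-fold and 10.2-fold).

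The same relatives were also read along the branch. The ETS factors of the tip went opposite to Elf5. Etv4 held 345 CPM in tip-like and 7.94 CPM in collecting duct-like nuclei at E18.5, a ratio of 0.0230 (0.0118 to 0.0406). At P3 it held 114 CPM against no UMI, where a floor of 3 UMIs equals 8.11 CPM. Etv5 held 325 CPM and 17.2 CPM at E18.5 and 156 CPM and 8.11 CPM at P3. Gata2 was higher in collecting duct-like than in tip-like nuclei, by 4.83-fold (2.92 to 8.46) and 2.80-fold (1.47 to 5.29), as was Klf5, by 6.25-fold (3.5 to 12.2) and 3.90-fold (1.65 to 9.50). The tip progenitor gene Sox9 was lower, at 0.106-fold (0.0586 to 0.179) and 0.302-fold (0.107 to 0.695). Avpr2 was 8.13-fold higher (2.53 to 41.6) in collecting duct-like nuclei at E18.5.

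Whether the factors met in the same nuclei was read from pairs in ureteric epithelium-like nuclei thinned to 1000 UMIs. At E18.5 a UMI of Tfcp2l1 was found in 40.3% of nuclei with Gata3 (35.6 to 45.1, exact binomial) and 38.0% of nuclei without it (34.5 to 41.7), and at P3 in 40.9% (31.8 to 50.4) and 33.8% (28.5 to 39.3). Elf5 was found in 8.54% of nuclei with Tfcp2l1 (6.11 to 11.5) and in 4.86% of those without (3.39 to 6.72) at E18.5, and in 6.54% (3.18 to 11.7) and 8.70% (5.65 to 12.7) at P3. Within collecting duct-like nuclei at E18.5 the same shares were 12.1% (8.24 to 16.9) and 9.39% (5.83 to 14.1). At 1000 UMIs a nucleus without a UMI may still express the gene, so that these shares say little about nuclei that lack a factor. Nuclei with UMIs of at least 2 of the 7 genes made up 39.1% and 42.3% of collecting duct-like, 19.2% and 22.1% of tip-like and 0.365% and 0.251% of endothelium-like nuclei. Of distal convoluted tubule-like nuclei they made up 28.5% and 31.0%, more than of tip-like nuclei.

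The genes with the most similar pattern over clusters were ranked by Pearson correlation of log2(CPM + 10) over the 24 clusters at E18.5 and the 36 clusters at P3, as a description without a test, since clusters share a library and differ in size and depth. Some clusters consisted mostly of called doublets and entered as points too. Among them were a cluster of 2978 nuclei at E18.5 (80.1% called) and one of 808 nuclei at P3 (93.4% called). The closest to Elf5 was Fxyd4, a regulator of the sodium pump in collecting ducts (r = 0.93 at E18.5 and 0.94 at P3). The closest to Emx1 were the calcium channel gene Trpv5 (0.90 and 0.90), listed here as a connecting tubule marker, and Slc12a3 (0.89 and 0.88). Epb41l4b was close to Grhl2 at both ages (0.94 and 0.94), after the desmosomal gene Dsg2 at E18.5 (0.95) and beside the membrane protease gene St14 at P3 (0.94). For Tfcp2l1 the first genes were Gm15640, Arhgef38 and Esrrg (each 0.94) at E18.5 and Ppargc1a (0.93), Cdkl1 and Atp1b1 (each 0.92) at P3. Gata3 was closest to 4930412O13Rik (0.91 and 0.87), which overlaps it on the opposite strand, followed by Rap1gap (0.86) and the sodium channel gene Scnn1g (0.85) at E18.5 and by Arhgef4 (0.86) and Scnn1b (0.84) at P3. Emx2 was close to its antisense gene Emx2os (0.89 and 0.88), and Elf3 to Plet1os (0.86) at E18.5 and Ptprr (0.84) at P3. Among the factors themselves, Tfcp2l1 and Grhl2 were the most alike (0.86 and 0.78), whereas the paralogs Emx1 and Emx2 reached 0.48 and 0.44.

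**Figure D3:**
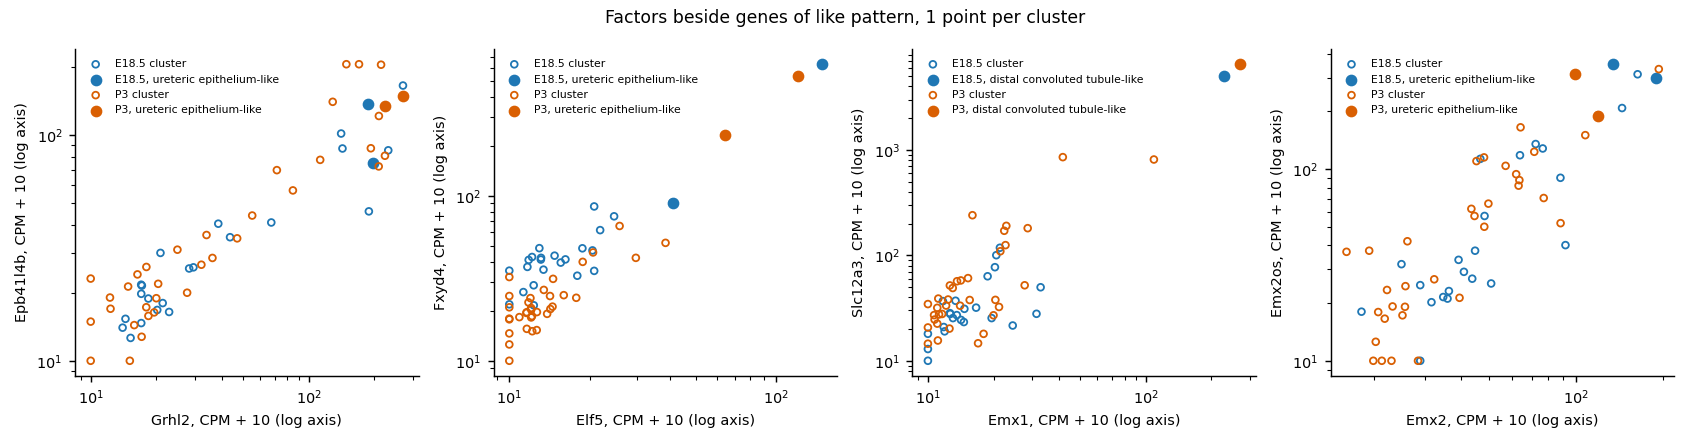
Levels of 4 factors (horizontal axes) and of a gene with a similar pattern (vertical axes), each as CPM + 10 on log axes, with 1 point per cluster at E18.5 (blue) and P3 (orange) and filled points for the class named in each legend. Elf5 and Fxyd4 are high in the ureteric epithelium-like clusters, and Emx1 and Slc12a3 in the distal convoluted tubule-like clusters, where Slc12a3 held 4962 CPM at E18.5 and 6487 CPM at P3. Fxyd4 and Slc12a3 are among the markers from which these classes were named.

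Between the libraries, the levels of the 7 genes in ureteric epithelium-like nuclei differed little. A single gene was past 2-fold, Emx1 at 0.376-fold (0.182 to 0.717) in P3 over E18.5, from 50 UMIs and 12 UMIs, compared with 17.6% of 13996 genes past 2-fold in either direction (4.05% higher and 13.5% lower). Emx2 was lower at P3 (0.655-fold, 0.564 to 0.760), and its antisense gene Emx2os was too (0.731-fold, 0.661 to 0.808). Gata3 (0.776-fold, 0.717 to 0.839) and Tfcp2l1 (0.862-fold, 0.803 to 0.925) were slightly lower, Grhl2 was higher (1.28-fold, 1.14 to 1.43), and Elf5 (0.979-fold, 0.813 to 1.18) and Elf3 (1.17-fold, 0.674 to 1.99) were not separated from 1 by counting error. The median log2 ratio was -0.21 over the 7 genes and -0.13 over all genes.

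Within the classes some of these ratios had another direction. Tfcp2l1 was higher at P3 in distal convoluted tubule-like nuclei (1.51-fold, 1.32 to 1.73) and collecting duct-like nuclei (1.29-fold, 1.15 to 1.45, but 1.06-fold, 0.959 to 1.18, under Leiden clustering), although it was lower over all ureteric epithelium-like nuclei, of which collecting duct-like nuclei made up 455 of 1150 at E18.5 and 71 of 429 at P3. In intercalated cell-like nuclei its ratio was 1.03 (0.927 to 1.14). The ratio of Elf5 was 0.953 (0.681 to 1.31) in collecting duct-like nuclei. In tip-like nuclei the direction for Tfcp2l1 and Elf5 depended on which P3 nuclei were named tip-like. Tfcp2l1 was at 1.84-fold (1.60 to 2.11) over the 208 nuclei, at 0.987-fold (0.793 to 1.22) over the 78 nuclei under Leiden clustering and at 2.49-fold (2.20 to 2.82) over 271 nuclei with 20 neighbours. Elf5 was at 2.10-fold (1.14 to 4.03) over the first of these groups, at 0.438-fold under Leiden clustering, from 3 UMIs at P3 and with an interval that reached above 1, and at 4.15-fold (2.46 to 7.36) with 20 neighbours, so that no change in tip-like nuclei can be read for either gene. Emx2 was lower in tip-like (0.719-fold), collecting duct-like (0.559-fold) and urothelium-like nuclei (0.241-fold, 0.0751 to 0.679). Emx2 also fell outside the collecting system, from 24.6 to 12.9 CPM in endothelium-like and from 34.6 to 12.1 CPM in nephron progenitor-like nuclei. In loop of Henle-like nuclei Emx2 stood at 36.5 CPM (24.9 to 51.5) and 45.4 CPM (37.3 to 54.7), with overlapping intervals. Gata3 fell from 23.7 to 14.9 CPM in endothelium-like and from 21.8 to 13.8 CPM in nephron progenitor-like nuclei. It rose from 173 to 280.4 CPM in mural-like nuclei. Lower counts of Emx2 and Gata3 at P3 were thus also found in classes with low levels of these genes, and whether expression fell there was not tested. In distal convoluted tubule-like nuclei Gata3 stood at 133 CPM and 131 CPM, and Emx2 at 62.3 CPM and 34.4 CPM. A library-wide shift was not tested. Within the collecting system, Gata3 was lower in intercalated cell-like (0.527-fold, 0.338 to 0.815) and urothelium-like nuclei (0.656-fold, 0.521 to 0.828), but not in tip-like nuclei (1.08-fold, 0.943 to 1.23). In the same tip-like nuclei the tip factors Etv4 and Etv5 stood at 0.330-fold (0.269 to 0.403) and 0.481-fold (0.401 to 0.575), and at 0.639-fold and 0.973-fold (0.798 to 1.18) under Leiden clustering. The 6 erythroid genes of the marker list, which should be absent from these cells, summed to 792 CPM in ureteric epithelium-like nuclei at E18.5 and 103 CPM at P3, and the part of such free RNA in these ratios was not tested.

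**Figure D4:**
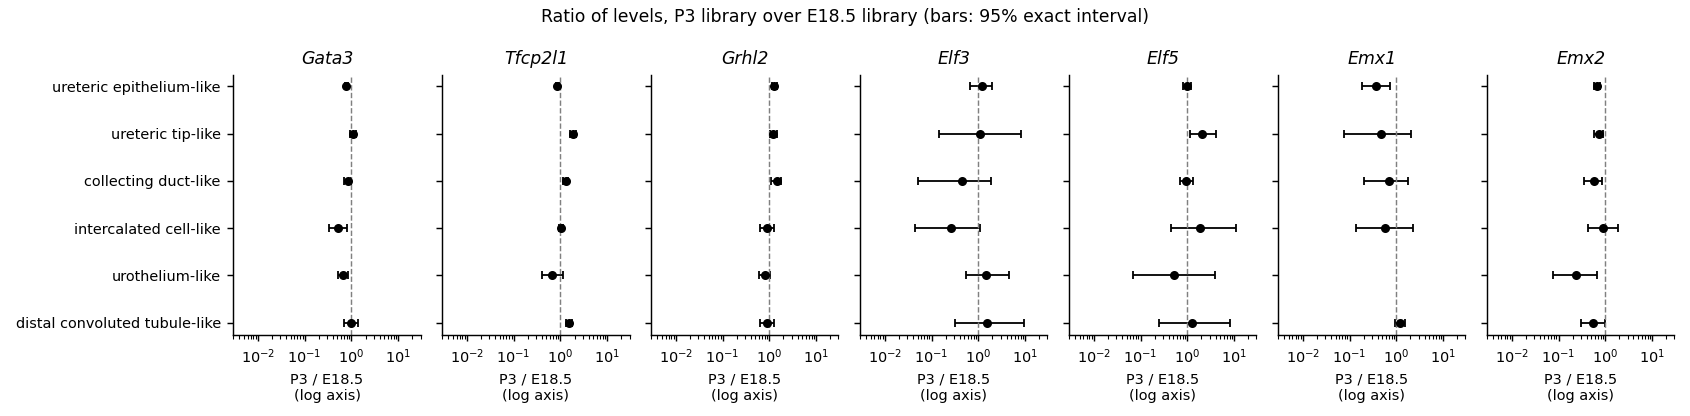
Ratio of the level at P3 to that at E18.5 (horizontal axis, log scale) for each factor (panels) in 6 groups of nuclei (vertical axis), where points are ratios, bars the 95% exact intervals and the dashed line marks equal levels. Emx2 lies to the left of the line in all groups, Tfcp2l1 lies to the right in distal convoluted tubule-like (1.51) and tip-like nuclei (1.84, but 0.987 under Leiden clustering, which is not drawn), and the bars of Elf3 are wide. Emx1 in urothelium-like nuclei has no point because no UMI was counted at either age.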

How the data were processed

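Nuclei of pooled mouse kidneys were profiled by 10x Genomics snRNA-seq in 1 library per age. The authors deposited unnormalized UMI counts per gene and barcode, made with Cell Ranger on mm10. The E18.5 matrix header names release 7.0.0 and the P3 header 5.0.1, whereas the submitters' processing notes list 5.0.1 for both. Whether intronic reads were counted is not given in the sources used here.

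Nuclei within 3 median absolute deviations were kept, with 5th to 95th percentiles of UMIs from 1141 to 7770.4 at E18.5 and from 935 to 15619 at P3. Scrublet (scanpy 1.11.5) called 16.6% and 17.4% of nuclei doublets, which were kept. Normalization used scran 1.30.0 (R 4.3.3), and 2000 variable genes without the 7 factors and 36 relatives gave 50 components (scater 1.30.1) and Walktrap clusters on 10 neighbours (bluster 1.12.0, igraph 2.1.4). A class needed at least 3 markers raised 2-fold, and the finer naming rules were set after clusters were seen. The factors, markers and lists were chosen with earlier results of these data known. Genes named are the factors, their relatives, class markers, overlapping genes and the 3 genes most like each factor. Leading genes of clusters and other genes were named after their values were seen.

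Levels were summed over nuclei. With 1 library per age, no p-value or standard error was computed. Ratios needed 20 UMIs over both groups to be counted against 2-fold, and the floor for a count of 0 was 3 UMIs. Shares were computed before and after thinning each nucleus to 1000 UMIs, without shallower nuclei. Positions came from GENCODE M21 and promoter windows from RefSeq. Python 3.11.15 with numpy 2.4.6, scipy 1.17.1, pandas 2.3.3 and matplotlib 3.10.9 was used. The scripts were tested on simulated data.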

Additional observations from a re-analysis of the deposited data

How the results depend on the processing

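Of 249 values computed under alternatives, 216 stayed within counting error of the reported value or, for counts of genes, within 1.5-fold of it, 31 moved and 2 reversed. No paired analysis was possible because each age has 1 library. Without called doublets, the ratio of ureteric epithelium-like to all other nuclei was 11.1 for Gata3, 4.49 for Tfcp2l1, 6.03 for Grhl2 and 14 for Elf5 at E18.5, and 12.2 for Gata3, 6.58 for Grhl2 and 19.9 for Elf5 at P3. Under this setting nuclei called doublets, which hold RNA of several classes, leave the other nuclei. As a mean over nuclei divided by size factors, it was 4.28 for Tfcp2l1 and 5.78 for Grhl2 at E18.5, and 10.4 for Gata3, 2.58 for Tfcp2l1, 1.51 for Elf3 and 16.8 for Elf5 at P3. The cause of these shifts was not tested.

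With Leiden clustering at P3, the ratio of collecting duct-like to tip-like nuclei was 3.53 for Tfcp2l1, 0.771 for Grhl2 and 16.7 for Elf5, and the cause was not tested. The ratio of P3 to E18.5 in tip-like nuclei, with alternatives chosen after seeing the data, reversed under Leiden clustering to 0.987 for Tfcp2l1 and 0.438 for Elf5, and the cause was not tested. The number of factors past 2-fold between these groups fell to 2 at E18.5 and 1 at P3 where 100 UMIs were required, and was 4 at P3 without a filter. Between the ages it was 0 where 100 UMIs were required and 2 at a fold of 1.5. Emx1 in distal convoluted tubule-like over ureteric epithelium-like nuclei, with alternatives chosen after seeing the data, moved to 19.1 under Leiden clustering at P3. Comparisons with P3 collecting duct-like nuclei were not run with 20 neighbours, where no such subcluster was found, nor Emx1 in distal convoluted tubule-like nuclei with Leiden clustering at E18.5, where no such class was found. Depth limits Elf3, of which 287 and 308 UMIs were counted in the whole libraries and no class at E18.5 could be separated from the next.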

Other observations

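Urothelium-like nuclei held a set of factors that ureteric epithelium-like nuclei held at lower levels. Pparg, a nuclear receptor known from urothelial differentiation, was at 1145 CPM in urothelium-like nuclei at E18.5 and 1064 CPM at P3, compared with 42.5 CPM and 12.4 CPM in ureteric epithelium-like nuclei. Klf5 was at 199 CPM and 113 CPM, compared with 47.4 CPM and 32.7 CPM, and the forkhead gene Foxa1 at 46.9 CPM and 56.6 CPM, compared with 2.29 CPM and 1.2 CPM. The ETS gene Ehf was at similar levels in both classes, with 169.9 CPM and 171 CPM in urothelium-like and 147 CPM and 170.1 CPM in ureteric epithelium-like nuclei. In the same urothelium-like nuclei Tfcp2l1 was at 79.1 CPM and 53.5 CPM and Emx2 at 38.1 CPM and 9.17 CPM.

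Pparg was also found in collecting duct-like nuclei at E18.5, at 56.9 CPM from 86 UMIs, and had 8.11 CPM from 3 UMIs in those of P3, a ratio of 0.143 (0.0288 to 0.431).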
